A study of Homo sapiens with 4 samples.

Results

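The 10 genes described here encode the endoplasmic reticulum (ER) stress sensors and the membrane-bound or stress-induced bZIP transcription factors of the unfolded protein response (UPR). They were taken as a list of symbols (ERN1, EIF2AK3, ATF6, ATF6B, XBP1, ATF4, CREB3, CREB3L1, CREB3L2 and CREB3L4) and matched by Ensembl identifier to the 60880 genes of the count table. All 10 were found. RNA-Seq of a human prostate cancer cell model gave 4 libraries. LNCaP95 (replicates 1 and 2) is a subline of the LNCaP line that was derived by long-term androgen depletion, and LN95(KO) (replicates 3 and 4) is LNCaP95 in which UGT2B17, an enzyme that inactivates androgens by glucuronidation, was knocked out with CRISPR. Both lines were untreated and grew in RPMI1640 with charcoal-stripped serum, so the comparison concerns basal levels without an ER stress inducer. In the labels all 4 libraries carry the cell line name LN95, whereas the series text names LNCaP for the knockout. How many knockout clones were used is not stated, and clone and knockout therefore cannot be told apart. The labels do not say that the libraries of a group came from separate cultures, so the p-values may measure technical spread.

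As background, the ER folds secreted and membrane proteins, and the UPR adjusts that capacity when unfolded proteins accumulate. IRE1α (encoded by ERN1), PERK (encoded by EIF2AK3) and ATF6 sit in the ER membrane and are held inactive in part by the chaperone BiP. IRE1α cuts an intron out of XBP1 mRNA so that an active factor is made. PERK phosphorylates the translation factor eIF2α, which slows protein synthesis and favors translation of ATF4. ATF6, ATF6B and the CREB3 family travel to the Golgi, where proteases release their cytoplasmic bZIP domains. Most of this activation happens on protein or by splicing and translation. The values below are mRNA levels of whole genes and do not measure it.

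Depth was similar, at 17330338 to 18813193 gene reads per library. UGT2B17 had 2788 and 2748 counts in LNCaP95 against 21 and 20 counts in LN95(KO), a log2 change of -7.04 (SE 0.102, adjusted p = 1.18e-18). Levels are given as counts and as CPM, reads of a gene scaled to a library of fixed size after TMM scaling. With no read counted, a level of up to 3 counts remains possible (0.163 to 0.169 CPM), which covers counting error only. Of the 7 prostate luminal markers looked at, all 7 were detected, and of 5 markers of other cells that were found in the table, CHGA had 0 counts, PTPRC 0 to 1 and KRT5 0 to 3. ACTA2 had 62 to 68 counts, and COL1A1 had 525 and 520 counts in LNCaP95 against 606 and 580 in LN95(KO), a log2 change of 0.22 (adjusted p = 0.0227) whose part in the results below was not tested. Fewer cells of a type and less RNA per cell cannot be told apart in bulk samples.

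Most of the 10 genes were lower in LN95(KO) by less than 2-fold. Of the 9 genes that passed the filter on low counts, 7 fell, namely ERN1, EIF2AK3, ATF6, XBP1, ATF4, CREB3 and CREB3L2. CREB3L4 and CREB3L1 rose, and ATF6B could not be tested. The threshold was an adjusted p under 0.05 over all 15626 genes tested (edgeR quasi-likelihood test). At that threshold 30.1% of all tested genes were lower and 29.8% higher, so single genes past it were common. A gene was called changed where the fold also exceeded 2. By that rule CREB3L1 was called higher and 0 of the 9 genes were called lower, against 8.86% of all tested genes called higher and 9.13% called lower. DESeq2 also called 0 of them lower and 1 higher, and 7 were lower at an unadjusted p under 0.05. The CPM values of the 2 groups did not overlap for 9 of the 10 genes, as was the case for 79.8% of all tested genes. The median log2 fold change was -0.39 over the 9 tested genes and -0.0080 over all tested genes. CREB3L1 passed the filter only through the group where it was high, and this median is a description.

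**Figure D1:**
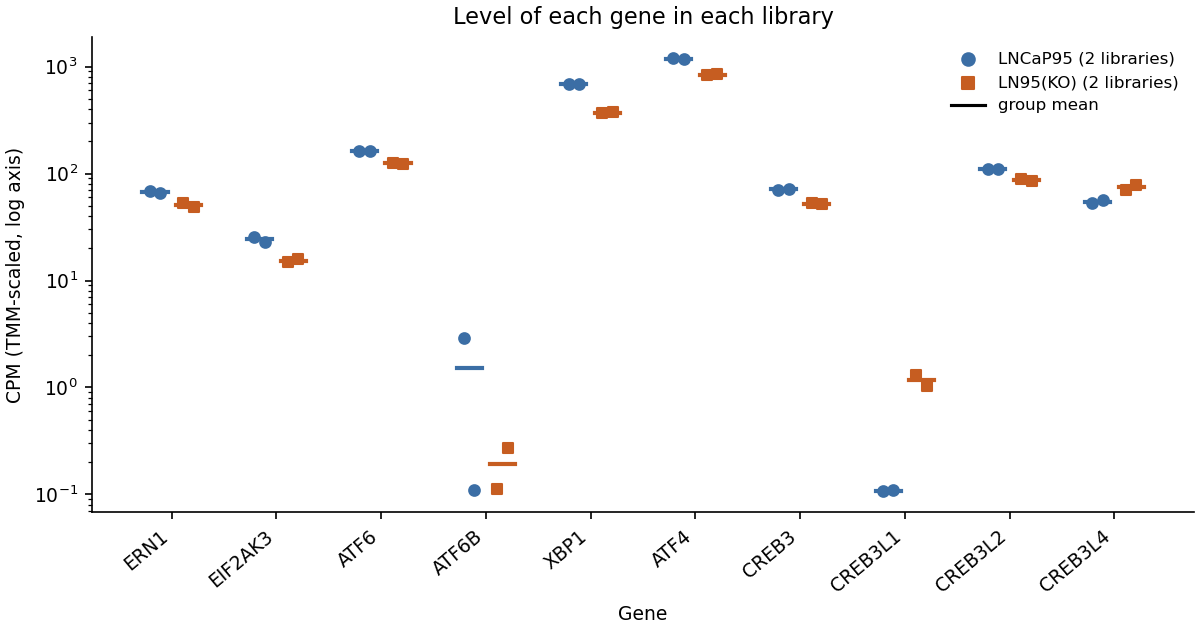
CPM (TMM-scaled, log axis) of each of the 10 genes in the 2 LNCaP95 libraries (circles) and the 2 LN95(KO) libraries (squares), with short lines at the group means. ATF4 and XBP1 are the highest genes in every library, and ATF6B is the gene whose groups overlap.

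The 3 classical sensors were all lower in LN95(KO). ERN1 (ENSG00000178607.15_2, GRCh37 chr17:62116440-62208179, minus strand) had 1263 and 1198 counts in LNCaP95 against 945 and 886 in LN95(KO). Its level was 66.9 ± 2.14 CPM (SD, n = 2) against 51.0 ± 3.42 CPM, a log2 change of -0.39 (SE 0.0657, adjusted p = 6.08e-05). Both LN95(KO) libraries lay below both LNCaP95 libraries, and the mean was lower by 23.8% of its LNCaP95 value. EIF2AK3 (ENSG00000172071.11_2, chr2:88856259-88991036, minus strand) had the largest estimated fall of the 3, a difference between sensors that was not tested, with 474 and 419 counts in LNCaP95 against 263 and 289 in LN95(KO). Its mean went from 24.3 ± 1.98 to 15.3 ± 0.691 CPM (SD, n = 2), a log2 change of -0.66 (SE 0.0961, adjusted p = 1.39e-05). ATF6 (ENSG00000118217.5_3, chr1:161736088-161947364, plus strand) was the most abundant of the 3 by counts. It had 3001 and 2983 counts against 2244 and 2246, and 163 ± 0.192 against 125 ± 2.62 CPM (SD, n = 2), a log2 change of -0.38 (SE 0.0498, adjusted p = 4.13e-06). Paired within each library, ATF6 had 2.38 and 2.49 counts for each ERN1 count in LNCaP95 against 2.37 and 2.53 in LN95(KO), so these ratios overlapped between the groups. ERN1 had 2.66 and 2.86 counts for each EIF2AK3 count in LNCaP95 against 3.59 and 3.07 in LN95(KO), ranges that did not overlap.

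ERN2, the IRE1 paralog of mucosal epithelia, had 0 counts in all 4 libraries. The signal of this gene pair was therefore that of ERN1 at this depth. Reads were counted without strand, and 4.62% of the exon bases of ERN1 and 3.77% of those of EIF2AK3 also belong to another annotated gene. ATF6 shares none.

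ATF6B, the close relative of ATF6, gave no usable value. The gene (ENSG00000213676.12_5, chr6:32083041-32096030, minus strand) lies in the MHC region and had 54 and 2 counts in LNCaP95 against 2 and 5 in LN95(KO), or 2.93, 0.109, 0.113 and 0.274 CPM. A single library, LNCaP95 replicate 1, held most of these reads, and the groups overlapped. The low counts were shared with its neighborhood. Of 95 protein-coding genes within 1 Mb of ATF6B, 7 (7.37%) reached a mean of 1 CPM over the 4 libraries, and 0 reached 10 CPM. Among 753 protein-coding genes of chromosome 6 more than 5 Mb away, 61.6% reached 1 CPM and 45.3% reached 10 CPM. Some genes that nearly all cells express were low in and next to this window as well. RPS18, a ribosomal protein gene 1.16 Mb away, had 732, 1, 0 and 1 counts, while the median of the 30 other RPS genes was 6138.5, 5901, 7583 and 8274.5 counts in the same libraries. TUBB, a tubulin gene on the other side of ATF6B and also outside the 1 Mb window, had 3, 0, 0 and 1 counts. Within the window CLIC1, a chloride channel gene, had 0, 1, 1 and 0 counts, and BAG6, a chaperone gene, had 17, 29, 28 and 28, so not all genes there were at 0. The ATF6B counts were accordingly not read as its expression. The cause was not tested. This check was chosen after the ATF6B counts were seen.

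**Figure D2:**
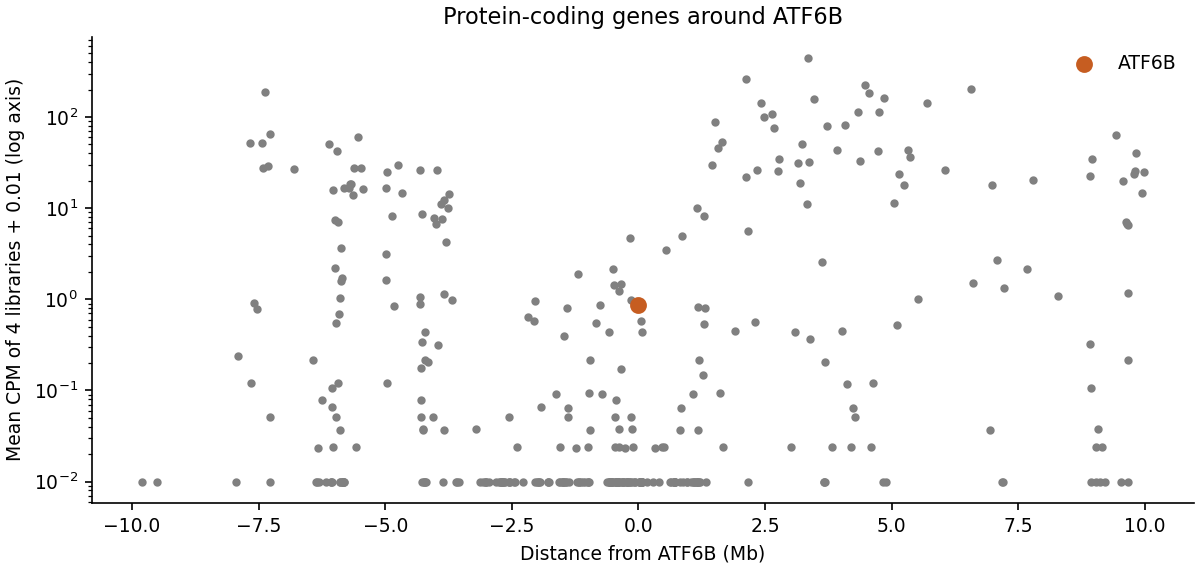
Mean CPM over the 4 libraries (plus 0.01, log axis) of protein-coding genes on chromosome 6 against their distance from ATF6B in Mb, 1 point a gene, with ATF6B in orange. The genes around ATF6B sit near the floor, and none within 1 Mb exceeds 4.95 CPM, in contrast to the genes farther away on either side.

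XBP1 had the largest estimated fall of the 9 tested genes. It is the factor that IRE1α activates by splicing, and its mRNA level is itself raised by ATF6. The gene (ENSG00000100219.16_5, chr22:29190543-29196585, minus strand) had 12816 and 12456 counts in LNCaP95 against 6515 and 6795 in LN95(KO). This was 687 ± 10.1 against 370 ± 3.01 CPM (SD, n = 2), a log2 change of -0.89 (SE 0.0455, adjusted p = 2.05e-11), and the mean was 46.1% below its LNCaP95 value. The LN95(KO) libraries were close to each other and far below both LNCaP95 libraries. For each ERN1 count there were 10.1 and 10.4 XBP1 counts in LNCaP95 against 6.89 and 7.67 in LN95(KO), so the ratio of XBP1 to its sensor was lower as well.

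The deposited counts are per gene and hold the unspliced and the spliced XBP1 mRNA together. The stretch that IRE1α removes is shown because it is what the counts cannot separate. It is read on the minus strand from the GRCh37 genome at chr22:29192116-29192141, with the 26 removed bases in capitals and 12 bases of exon on each side, followed by the same place after splicing.
XBP1 unspliced: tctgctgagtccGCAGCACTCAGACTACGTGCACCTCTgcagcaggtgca
XBP1 spliced: tctgctgagtccgcagcaggtgca
The placement is that of the annotation, and a gap moved by up to 6 bases downstream gives the same spliced sequence. Division of 26 by 3 leaves 2, so removal shifts the reading frame, and the annotated coding length goes from 261 to 376 codons. A change in the share of the spliced form would leave the gene count as it is, and that share was not measured here.

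ATF4 was the most abundant gene of the group and also fell. It is the factor translated when eIF2α is phosphorylated, and it switches on genes of amino acid supply and of stress-induced cell death. The gene (ENSG00000128272.14_2, chr22:39915700-39918688, plus strand) had 22020 and 21390 counts in LNCaP95 against 14616 and 15536 in LN95(KO). Its level was 1180.5 ± 17.8 against 838.6 ± 18.1 CPM (SD, n = 2). The log2 fold change was -0.49 (SE 0.0451, adjusted p = 4.97e-08), with the mean 29% lower and the groups well apart. The estimated fall of XBP1 was the larger one, a difference that was not tested, with 0.582 and 0.582 XBP1 counts for each ATF4 count in LNCaP95, against 0.446 and 0.437 in LN95(KO).

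The 4 listed CREB3 family genes did not move together. CREB3 (ENSG00000107175.11_3, chr9:35732595-35736996, plus strand), also known as Luman, had 1304 and 1310 counts in LNCaP95 against 938 and 945 in LN95(KO). Its level was 71.1 ± 0.617 against 52.4 ± 0.858 CPM (SD, n = 2), a log2 change of -0.44 (SE 0.0600, adjusted p = 6.69e-06). CREB3L2 (ENSG00000182158.14_2, chr7:137559725-137686832, minus strand) drives secretory pathway genes in cartilage, and it had 2041 and 1998 counts in LNCaP95 against 1574 and 1544 in LN95(KO). Its level was 109.8 ± 1.06 against 86.8 ± 3.06 CPM (SD, n = 2). This was the smallest estimated fall of the 7 genes that were lower, with a log2 change of -0.34 (SE 0.0541, adjusted p = 3.65e-05). Both genes kept a clear gap between the groups.

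CREB3L4 and CREB3L1 went the other way. CREB3L4 (ENSG00000143578.15_2, chr1:153940010-153946837, plus strand), which is enriched in prostate and known as an androgen-induced bZIP factor, had 969 and 1038 counts in LNCaP95 against 1252 and 1421 in LN95(KO). Its level rose from 54.6 ± 2.95 to 74.3 ± 5.04 CPM (SD, n = 2), a log2 change of 0.45 (SE 0.0664, adjusted p = 1.83e-05). Both LN95(KO) libraries were above both LNCaP95 libraries. The balance within the family shifted with it, from 0.743 and 0.792 CREB3L4 counts for each CREB3 count in LNCaP95 to 1.33 and 1.50 in LN95(KO). Relative to CREB3L2 the ratio was 0.475 and 0.520 in LNCaP95 against 0.795 and 0.920 in LN95(KO). Of the exon bases of CREB3L4, 12.9% are shared with another annotated gene, and of those of CREB3, 8.20%, so part of their reads cannot be assigned without strand. KLK3, which encodes prostate-specific antigen and is known to respond to androgen, had 579 and 641 counts in LNCaP95 against 7488 and 7159 in LN95(KO). Its part in the level of CREB3L4 was not tested.

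CREB3L1 (ENSG00000157613.10_3, chr11:46299213-46342959, plus strand), the factor known as OASIS that drives collagen genes in bone, was near the detection limit. It had 2 and 2 counts in LNCaP95 against 23 and 19 in LN95(KO), that is 0.109 CPM in LNCaP95, under the limit that a count of 0 allows, and 1.17 ± 0.183 CPM (SD, n = 2) in LN95(KO). Scaled by library size, the 42 LN95(KO) counts against 4 LNCaP95 counts gave a ratio of 10.7, with a 95% counting interval from 3.9 to 41.2. The fitted log2 change was 3.35 (SE 0.540, adjusted p = 4.29e-05) and depends on the prior count of the fit. CREB3L3, the member of this family made mainly in liver and intestine, had 0 counts in every library.

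**Figure D3:**
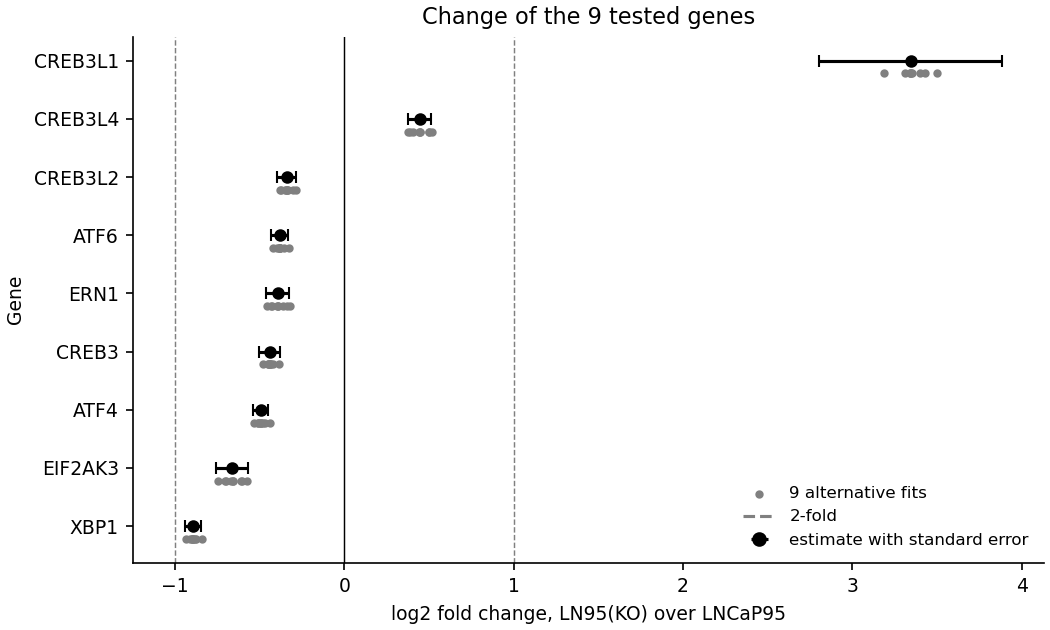
log2 fold change of LN95(KO) over LNCaP95 for the 9 tested genes (black points, bars are standard errors) with the values from 9 alternative fits as grey points beneath and dashed lines at 2-fold. From XBP1 at -0.89 to CREB3L2 at -0.34 all 7 lower genes stay between the 2-fold line and 0, and CREB3L1 lies far to the right with the widest error bar.

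Per length, the order of the genes was almost the same in both lines. CPM per kb of merged exon was 452 in LNCaP95 and 321 in LN95(KO) for ATF4, and 227 and 122 for XBP1. The mean levels of CREB3 (43.5 against 32.0 CPM per kb) and CREB3L4 (18.8 against 25.6) came next, followed by CREB3L2 (12.5 against 9.85) and ATF6 (11.4 against 8.76). The other sensors were lower, with ERN1 at 3.49 and 2.66 CPM per kb and EIF2AK3 at 1.17 and 0.742. ATF4 mRNA was thus the most abundant of these transcripts and EIF2AK3 mRNA the least abundant of the 8 genes that were well above the detection limit in both lines. Neighbors among these 8 did not overlap within either group. The order depends in part on which length is used. With the longest annotated transcript in place of merged exons, ATF6 (21.8 and 16.7 CPM per kb) was above CREB3L2 (14.8 and 11.7), and in LN95(KO) CREB3L4 (42.5) was above CREB3 (35.0). ERN1 was then at 7.41 and 5.65 CPM per kb and EIF2AK3 at 5.14 and 3.25, still the lowest of the 8. The low values of these sensors per kb of merged exon thus depend strongly on the length used.

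The promoters of the 10 genes were read from RefSeq (GRCh38.p14, 250 bases before to 50 after each start, 13 windows for the 10 genes). The ER stress response element (ERSE), to which ATF6 binds with NF-Y, is CCAAT, 9 bases of any kind and CCACG. On either strand it was present in the window of XBP1 and in 27 of 35116 windows in all (0.0769%). The CRE, TGACGTCA, was present in the window of CREB3L2 and in 1.85% of all windows. CCAAT alone, which is also the start of the ERSE, was in 5 of the 13 windows (those of EIF2AK3, ATF6B, CREB3L2, ERN1 and XBP1) and in 34.6% of all windows. The UPR element TGACGTGG (0.729% of all windows) and ERSE-II, ATTGG, 1 base of any kind and CCACG (0.0541%), matched none of the 13. The ERSE of XBP1 and the CRE of CREB3L2 were the only matches to these 2 elements in the 13 windows, and both are shown. Whether either match has a part in the level of its gene was not tested. The XBP1 stretch is chr22:28800588-28800636, minus strand, with the ERSE in capitals from 52 to 34 bases before the start. The CREB3L2 stretch is chr7:138002243-138002280, minus strand, with the CRE in capitals from 179 to 172 bases before the start.
XBP1 promoter: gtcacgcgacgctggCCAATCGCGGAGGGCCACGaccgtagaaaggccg
CREB3L2 promoter: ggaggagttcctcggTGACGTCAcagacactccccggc
A match gives letters in a window and not a bound site.

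The genes around these 10 were taken in 8 lists, which held 125 different genes. Of 123 tested, 59 fell and 31 rose, and 7 were called at 2-fold. The lists were chosen with results of these data known, so their counts are descriptions. Genes that fell or rose are to be read against the 30.1% lower and 29.8% higher among all tested genes. For calls at 2-fold, the shares of all tested genes were 8.86% called higher and 9.13% called lower. All of these shares cover every gene past the filter and were not matched to the count levels of the list genes.

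On the PERK side, the other kinases of eIF2α did not share a direction. EIF2AK1, the heme-regulated kinase, had 7506 and 7327 counts in LNCaP95 against 5162 and 5335 in LN95(KO), and fell by 0.47 on the log2 scale (SE 0.0458, adjusted p = 1.27e-07). EIF2AK2, the kinase PKR that is activated by double-stranded RNA, fell by 0.56 (SE 0.0633, adjusted p = 7.76e-07). EIF2AK4, the amino acid sensor GCN2, had 1101 and 1096 counts in LNCaP95 against 1473 and 1533 in LN95(KO), and rose by 0.48 (SE 0.0570, adjusted p = 1.19e-06). Of the 15 genes of eIF2 kinases, eIF2, eIF2B and its phosphatases, 4 fell, 3 rose and 8 did not pass the threshold, with a median log2 fold change of -0.02.

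Of the 22 PERK and ATF4 targets, 14 fell and 5 rose, with a median of -0.41. ATF5, a bZIP factor of the stress response, had the smallest adjusted p of the list, and went from 2657 and 2623 counts in LNCaP95 to 958 and 945 in LN95(KO), a log2 change of -1.44 (SE 0.0554, adjusted p = 4.90e-13). ATF5 shares 22.1% of its exon bases with another gene. NUPR1, a stress-induced chromatin protein, fell by 0.80 (SE 0.0529, adjusted p = 6.79e-10). FGF21, a secreted stress hormone, was low, with 59 and 40 counts against 22 and 13, and a log2 change of -1.46 (SE 0.309, adjusted p = 6.04e-04). ERO1A, the oxidase that makes disulfide bonds in the ER, was called higher, from 570 and 564 counts to 1325 and 1360, a log2 change of 1.28 (SE 0.0641, adjusted p = 1.67e-11). The 3 genes of this arm that are often read by PCR gave no steady call. DDIT3, which encodes CHOP, had 2139 and 1995 counts in LNCaP95 against 1867 and 1662 in LN95(KO), a log2 change of -0.19 (SE 0.0652, adjusted p = 0.0165), and 39.6% of its exon bases are shared. Without LN95(KO) replicate 4 this adjusted p was 0.217, and over all 9 alternatives it lay between 0.00137 and 0.217. PPP1R15A, which encodes GADD34, had 268, 249, 311 and 226 counts (adjusted p = 0.592). PMAIP1, which encodes NOXA, had 443, 439, 409 and 558 counts (adjusted p = 0.205). For PPP1R15A and PMAIP1 the libraries overlapped between the groups, and the sign of the estimate depended on the library left out. It was -0.18 for PPP1R15A and 0.35 for PMAIP1 without LN95(KO) replicate 3, and 0.33 and -0.050 without LN95(KO) replicate 4. In these fits PMAIP1 passed the threshold without replicate 3 (adjusted p = 0.00446) and PPP1R15A without replicate 4 (adjusted p = 0.0328), and over all 9 alternatives the adjusted p lay between 0.00446 and 0.661 for PMAIP1 and between 0.0328 and 0.855 for PPP1R15A.

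Genes that control or process IRE1α and ATF6 were mixed, with 9 of 21 lower, 7 higher and a median of -0.06. DNAJB9, a BiP cochaperone that represses IRE1α and is itself a target of XBP1, had 1912 and 1825 counts in LNCaP95 against 874 and 764 in LN95(KO), and was called lower with a log2 change of -1.16 (SE 0.0702, adjusted p = 2.15e-10). WFS1, the wolframin that restrains ATF6, fell by 0.88 (SE 0.0610, adjusted p = 1.31e-09). PDIA6, a disulfide isomerase that limits IRE1α and PERK signaling, rose by 0.56 (SE 0.0469, adjusted p = 1.48e-08), with 25.2% of its exon bases shared. The proteases that cut ATF6 and the CREB3 family in the Golgi were both lower, MBTPS1 at -0.32 (adjusted p = 7.25e-05) and MBTPS2 at -0.58 (adjusted p = 2.47e-07). RTCB, the ligase that joins the XBP1 exons, was at -0.30 (adjusted p = 1.91e-04). These last 3 genes were picked after their values were seen.

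The targets of XBP1 and of ATF6 were counted as separate lists that overlap, and the difference between these lists was not tested. HERPUD1, which fell, and DNAJB11, which rose by 0.21 (adjusted p = 0.00827), were counted in both. Of 22 XBP1 targets, 12 fell and 4 rose, with a median of -0.18, and DNAJB9 was the single gene called. HERPUD1, which helps degrade misfolded ER proteins and is also a target of ATF6, fell by 0.66 (SE 0.0540, adjusted p = 1.30e-08), and SEC31A, a coat protein of ER export vesicles, fell by 0.49 (SE 0.0475, adjusted p = 1.19e-07). EDEM1, a lectin of ER-associated degradation, was at 0.14 (SE 0.0550, adjusted p = 0.0348, and 0.00535 to 0.280 over the alternatives). Of 13 ATF6 targets, 9 rose and 2 fell, HERPUD1 and SEL1L, with a median of 0.46 (0.39 to 0.53 over the alternatives). CALR, the ER chaperone calreticulin, had 21867 and 22114 counts in LNCaP95 against 35380 and 36604 in LN95(KO), a log2 change of 0.74 (SE 0.0444, adjusted p = 1.73e-10). HSP90B1, the ER form of HSP90, rose by 0.69 (SE 0.0499, adjusted p = 2.16e-09), PDIA4 by 0.60 (adjusted p = 3.69e-09) and CRELD2 by 0.80 (adjusted p = 1.21e-09). DERL3, of the degradation channel, was called higher at 10 and 9 against 48 and 51 counts (log2 fold change 2.40, SE 0.305, adjusted p = 3.07e-06). It had LNCaP95 counts at or under the minimum of the filter, and 77.0% of its exon bases are shared. SEL1L, a subunit of the degradation complex, fell by 0.33 (adjusted p = 1.09e-05), and HYOU1, a BiP-like chaperone, was at 0.07 (adjusted p = 0.213). With library totals HYOU1 was at 0.12 and passed the threshold (adjusted p = 0.0282). HSPA5, which encodes BiP itself, had 18905 and 18090 counts in LNCaP95 against 18107 and 17969 in LN95(KO), a log2 change of -0.0031 with a standard error of 0.0459 (adjusted p = 0.957). HSPA5 was named after its value was seen.

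**Figure D4:**
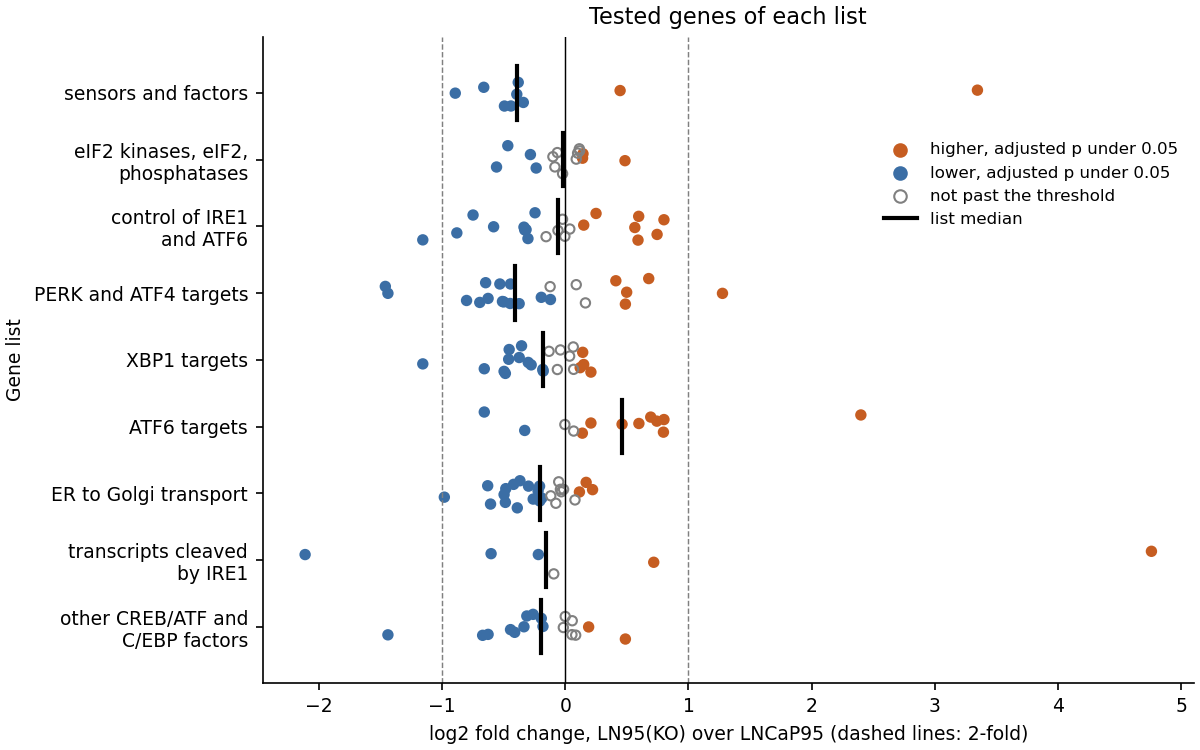
log2 fold change of LN95(KO) over LNCaP95 for the tested genes of the 10 described here (top row) and of 8 lists around them, 1 point a gene, orange where higher and blue where lower at an adjusted p under 0.05, open where not past it, with black bars at the list medians and dashed lines at 2-fold. ATF6 targets are mostly to the right of 0 (median 0.46) and PERK and ATF4 targets mostly to the left (median -0.41).

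Among 25 tested genes of ER to Golgi transport, the pathway that CREB3 family factors are known to supply, 15 fell and 3 rose, with a median of -0.21. MIA3, the TANGO1 receptor that loads collagen into vesicles, had 4312 and 4599 counts in LNCaP95 against 2362 and 2047 in LN95(KO), a log2 change of -0.98 (SE 0.0705, adjusted p = 3.22e-08). MIA2, its partner, fell by 0.61 (SE 0.0520, adjusted p = 2.19e-08). Of the 6 transcripts known to be cleaved by IRE1α, 3 fell and 2 rose, and they covered a wide range. PMP22, a myelin membrane protein gene, was called lower, with 84 and 76 counts against 20 and 16 (log2 fold change -2.11, SE 0.242, adjusted p = 8.80e-07). SPARC, a matrix glycoprotein gene, was called higher, with 5 and 3 counts against 97 and 121 (4.76, SE 0.319, adjusted p = 8.20e-10), and it passed the filter only through LN95(KO). COL6A1, a collagen gene, fell by 0.60 (SE 0.0486, adjusted p = 1.03e-08).

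Of 17 tested genes for other CREB/ATF and C/EBP factors, which can pair with ATF4 or bind related sites, 10 fell and 2 rose, with a median of -0.19. ATF5 was the single gene called. NFE2L1, a membrane-bound ER factor that controls proteasome genes, fell by 0.67 (SE 0.0523, adjusted p = 6.49e-09). CEBPB, a partner of ATF4, fell by 0.63 (SE 0.0558, adjusted p = 3.61e-08).

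The test rests on 2 libraries a group. An exact permutation test over single genes could not go below p = 0.333 in this design, so the adjusted p-values depend on the spread that edgeR shares across genes (biological coefficient of variation 4.27%). The share of reads not aligned was 3.85% and 3.96% in LNCaP95 against 8.05% and 7.71% in LN95(KO), a difference between the groups whose part in these levels was not tested.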

How the data were processed

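RNA-Seq was analysed in 2 LNCaP95 and 2 LN95(KO) libraries (poly(A) selection, DNBseq). Reads were mapped by the authors with HISAT2 (version 2.1.0, default settings, hg19) and assigned to GENCODE genes with htseq, ignoring strand. The deposited values are raw counts, and the combined series table repeats them (0 cells differed). Reads on several genes or aligned more than once are left out by htseq, so close paralogs can lose reads. Of 60880 identifiers, 59899 matched a symbol. The 5 summary lines entered neither library sizes nor tests (no feature 3.81% to 4.06% of entries, ambiguous 9.82% to 10.4%).

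For the comparison, edgeR (version 4.0.16, under R 4.3.3) was used with its quasi-likelihood test, TMM factors and no covariate. Default filterByExpr settings (count minimum 10, total minimum 15) kept 15626 genes. Benjamini-Hochberg adjustment ran over all of them, tests were two-sided, and a call needed an adjusted p under 0.05 and a fold over 2. Scripts were tested on simulated counts. Alternatives were DESeq2 (version 1.42.0), RLE, upper quartile and library-total scaling, no filter, glmTreat and leaving out each library. The glmTreat fit was used for counts of calls only, which leaves 9 alternatives for the fold change of each gene. Exons and coordinates came from GENCODE release 44 on GRCh37, a later release than that of the counts. Promoters came from RefSeq.

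The members and the lists around them were chosen with earlier results of these data known. Within each list, genes called (up to 5) and the 3 with the smallest adjusted p were named, together with DDIT3, PPP1R15A, PMAIP1, PDIA4, SEL1L, HYOU1 and EDEM1. DNAJB11 was named because it is in both the XBP1 and the ATF6 list. Protein sequences and XBP1 isoforms were not analysed here. Some marker genes are not reported here.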

Additional observations from a re-analysis of the deposited data

Results flagged for a closer look

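Among entries that no comparison of genes uses, reads not aligned made up at least 7.71% of each LN95(KO) library, above the 3.85% and 3.96% of the LNCaP95 libraries. No group had the 4 samples that a check for outlying libraries needs.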

How the results depend on the processing

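Each of the 9 tested members kept its direction in the 9 alternatives other than glmTreat. With DESeq2, with RLE, upper quartile or library-total scaling and with no filter, each also stayed past an adjusted p of 0.05. In the glmTreat test against a 2-fold change, 1 member was called higher and 0 lower. Log2 fold changes ranged from -0.93 to -0.84 for XBP1, -0.74 to -0.58 for EIF2AK3, -0.46 to -0.32 for ERN1 and 0.38 to 0.52 for CREB3L4. A test against a 2-fold change (glmTreat) called 1687 genes in place of 2811, 845 of them higher and 842 lower. DESeq2 called 2358 and no filter 3362, and leaving out 1 library gave 2539 to 2777. Members called lower numbered 0 to 1 when a library was left out. Without LNCaP95 replicate 2, ATF6B passed the filter on the 54 counts of the remaining LNCaP95 library and was called lower, and the lone library is then assumed to vary like the others. List genes that rose numbered 31, and 20 to 33 when a library was left out, with 20 without LNCaP95 replicate 2. Those that fell numbered 53 to 59. HSPA5, at -0.0031, changed sign to 0.053 with library totals, 0.023 without LNCaP95 replicate 1 and 0.028 without LN95(KO) replicate 4, and lay between -0.030 and 0.028 with a library left out. PMAIP1 lay between -0.050 and 0.35 and PPP1R15A between -0.18 and 0.33 in those fits, both changing sign between LN95(KO) replicates 3 and 4. DDIT3 was no longer past the threshold in 4 of 9 alternatives and EDEM1 in 6. PMAIP1 passed it without LN95(KO) replicate 3, PPP1R15A without LN95(KO) replicate 4 and HYOU1 with library totals (0.12). The median of the ATF6 targets, 0.46, moved by more than the median standard error of its genes in 3 of 9 alternatives, to 0.52 with library totals and to 0.53 and 0.39 without LN95(KO) replicates 3 and 4 in turn. Other scalings moved the median log2 fold change of all genes by at most 0.0555. No paired analysis was possible because replicates 1 and 2 belong to one group and 3 and 4 to the other. Depth limits CREB3L1, whose LNCaP95 counts were under the limit that a count of 0 allows.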
